A study of Danio rerio with 116 samples.

Results

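The long arm of zebrafish chromosome 4 was taken as the CG calls of chromosome 4 after position 27000000 and up to position 71000000, and was divided into 440 windows of 100 kb out of 13357 windows of the analysed genome. All 440 windows held at least 1 call. Positions 1 to 27000000 of the same chromosome (270 windows) and the other 24 chromosomes (12647 windows) served as comparison. The positions are those of the deposited files, for which the submitters' processing notes name GRCz10 as the build. The boundaries were given as round numbers and used no methylation value, though the arm was chosen with earlier results of these data known.

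The calls came from low coverage whole genome bisulfite sequencing, with adaptors added after bisulfite treatment, of cells sorted from Tg(vasa:EGFP) zebrafish. In this line the promoter of vasa, a germline RNA binding protein, drives EGFP, so EGFP +ve cells are the germline and EGFP −ve cells sorted at the same ages are the control cells. There were 59 EGFP +ve and 57 control libraries at 14 ages, of which 9 lay between 1 and 28 dpf and the others were 35, 40, 45, 50 and 70 dpf. All fish carried the transgene. Libraries of 1 to 28 dpf pooled 10 fish of unknown sex, and libraries from 35 dpf came from 1 fish each, a presumptive female or male. There were 38 groups by kind of cell, age and sex. EGFP +ve cells of 28 dpf gave 5 libraries and each of the other groups gave 3. Control cells are a mixture of cell types that changes with age. Whole fish were dissociated at young ages and the gonadal region was dissected later. Per the paper, EGFP +ve cells of the sexed fish were germinal stem cells and early stages only. Larger oocytes were filtered out, and vasa:EGFP falls as male germ cells mature. Whether later germ cells were among the control cells was not tested. No cell type marker can be read from methylation calls, so the labelled cell types were not checked.

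The long arm of zebrafish chromosome 4 is known as a late replicating, heterochromatic stretch. It is rich in repeats, in genes of small nuclear RNAs and 5S ribosomal RNA and in large families of immune receptor (NLR) and zinc finger genes, and it is poor in single-copy protein coding genes. In wild strains the sex-linked region lies towards the end of this chromosome. CG methylation is the usual state of vertebrate DNA outside CpG islands, which are CG-rich stretches at many promoters that mostly stay unmethylated.

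The arm received 76009 CG calls, 41645 in control and 34364 in EGFP +ve libraries. A library had between 100 and 3489 calls on the arm, with a median of 466.5, from 28 to 915 reads. Calls on the arm made up 1.28% to 3.42% of the analysed calls of a library, with a median of 2.28%, where chromosome 4 after position 71000000 and sequence outside the 25 chromosomes are left out of the total. The 95% Wilson interval of the percentage of methylated calls of the arm reached 1.102 to 6.81 points to either side in single libraries, with a median of 3.07. These intervals cover counting error only, since calls of 1 read are not independent and reads carry no molecular identifiers. The library with the fewest calls was EGFP +ve female replicate B at 45 dpf, with 28 reads on the arm.

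The long arm was sparsely covered and highly methylated in both kinds of cell. The number of calls per 100 kb window relative to that on the other chromosomes, referred to here as relative call density, was 0.676 ± 0.149 (SD, n = 57) in control libraries and 0.676 ± 0.128 (SD, n = 59) in EGFP +ve libraries. Control libraries ranged from 0.381 to 1.01 around a median of 0.680, and EGFP +ve libraries from 0.401 to 1.04 around a median of 0.686. The value was below 1 in 56 of 57 control and 58 of 59 EGFP +ve libraries. The exceptions were control male replicate B at 70 dpf and EGFP +ve male replicate A at 40 dpf, with 94 and 316 reads on the arm. Tested within libraries on the log2 scale, the geometric mean ratio was 0.659 in control and 0.664 in EGFP +ve cells (two-sided sign-flip permutation test over libraries, p = 1e-05 for both, the smallest p that 100000 permutations can give). Against positions 1 to 27000000 of chromosome 4 the ratios were 0.664 and 0.697 (same permutation test, p = 1e-05 for both). Call density was not adjusted for the number of CGs, gaps in the assembly or how uniquely reads map. Their part in the low density was not tested.

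Methylation of the arm was 85.9% ± 2.84 (SD, n = 57) in control cells, with a range of 79.2% to 91.1% and a median of 86.7%. In EGFP +ve cells it was 87.1% ± 3.65 (SD, n = 59), with a range of 79.3% to 93.4% and a median of 87.3%. The other chromosomes of the same libraries had 76.7% ± 1.99 (SD, n = 57) and 79.3% ± 3.25 (SD, n = 59). The arm thus exceeded the other chromosomes by 9.24 ± 0.385 points (SE, n = 57) in control cells, in 57 of 57 libraries, and by 7.79 ± 0.372 points (SE, n = 59) in EGFP +ve cells, in 58 of 59 libraries (sign-flip permutation test, p = 1e-05 for both). The exception was EGFP +ve male replicate B at 35 dpf, in which the arm was at 81.6% and the other chromosomes at 84.9%. It rested on 72 reads of the arm. Against positions 1 to 27000000 of chromosome 4 the excess was 13.7 ± 0.619 points in control cells and 10.9 ± 0.716 points in EGFP +ve cells (SE, sign-flip permutation test, p = 1e-05 for both). When each read was counted once in place of each call, the excess over the other chromosomes shrank to 5.10 and 3.93 points (same permutation test, p = 1e-05 for both).

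Among 26 segments (24 other chromosomes, positions 1 to 27000000 of chromosome 4 and the arm), the arm ranked first in methylation and last in call density in both kinds of cell. The next highest segment was chromosome 15 at 78.1% in control cells and chromosome 12 at 81.1% in EGFP +ve cells. Positions 1 to 27000000 of the same chromosome ranked 26 of 26 in methylation, with 72.3% in control and 76.2% in EGFP +ve cells.

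**Figure D1:**
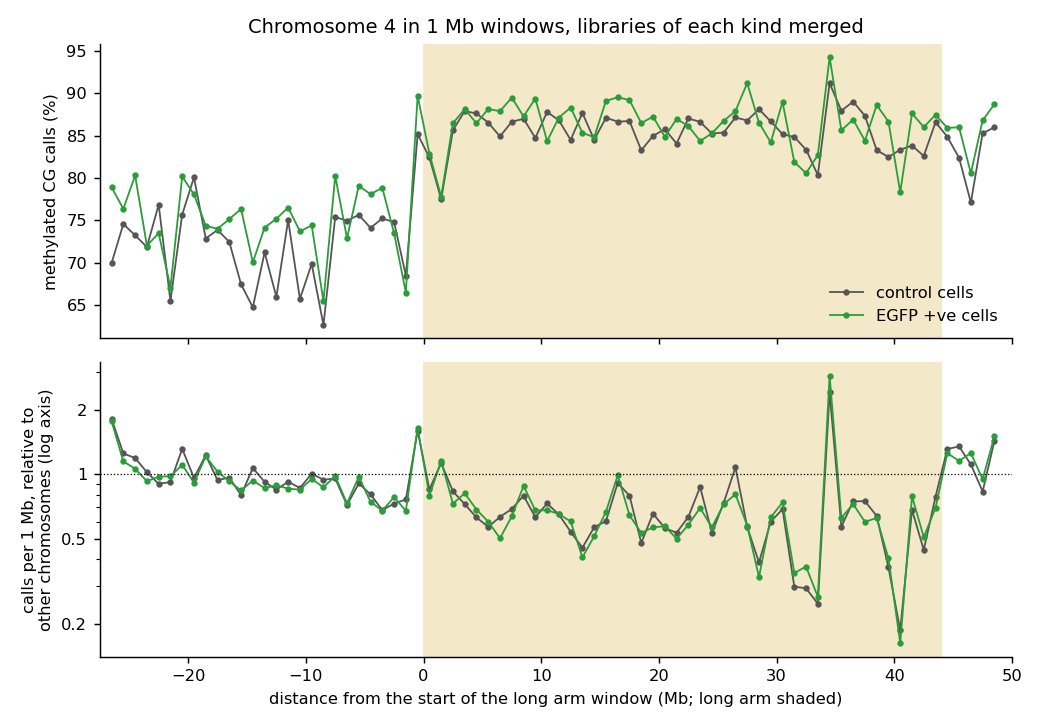
Methylated CG calls in per cent (upper) and calls per 1 Mb relative to the other chromosomes on a log axis (lower) along chromosome 4, for merged control (grey) and EGFP +ve (green) libraries, with the long arm shaded and the last Mb with calls left out. Methylation of the arm stayed between 77.5% and 91.2% in control cells while call density fell below that of the other chromosomes in 41 of 44 windows, and both kinds of cell had a peak of calls at 34 to 35 Mb from its start.

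Along the arm, high methylation and low density were spread over nearly its whole length. In windows of 1 Mb with libraries merged, methylation had a median of 86.1% in control and 86.7% in EGFP +ve cells, and exceeded 80% in 43 and 42 of 44 windows. On positions 1 to 27000000 it had a median of 73.2% and 75.1% and exceeded 80% in 2 and 4 of 27 windows. Relative density on the arm ranged from 0.187 to 2.42 in control and from 0.162 to 2.88 in EGFP +ve cells, and was under 1 in 41 and 42 of 44 windows. The sparsest window was 67 to 68 Mb in both kinds of cell, with 264 and 189 calls. A run of sparse windows at 58 to 61 Mb, with 0.248 to 0.298 of the usual density in control cells, lay just before the densest window at 61 to 62 Mb.

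The window boundaries did not coincide exactly with the change in methylation. The last window before the arm, 26 to 27 Mb, had 85.2% methylated calls in control and 89.7% in EGFP +ve cells and 1.599 and 1.65 times the density of the other chromosomes. The first window of the arm, 27 to 28 Mb, had 82.4% and 82.9%. At the far end, the last window of the arm (70 to 71 Mb) had 86.6% and 87.5%, and the window just outside it (71 to 72 Mb) had 84.9% and 85.9%. With the inner stretch from 30 to 68 Mb alone, the excess over the other chromosomes was 9.86 points in control and 8.39 points in EGFP +ve cells.

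**Figure D2:**
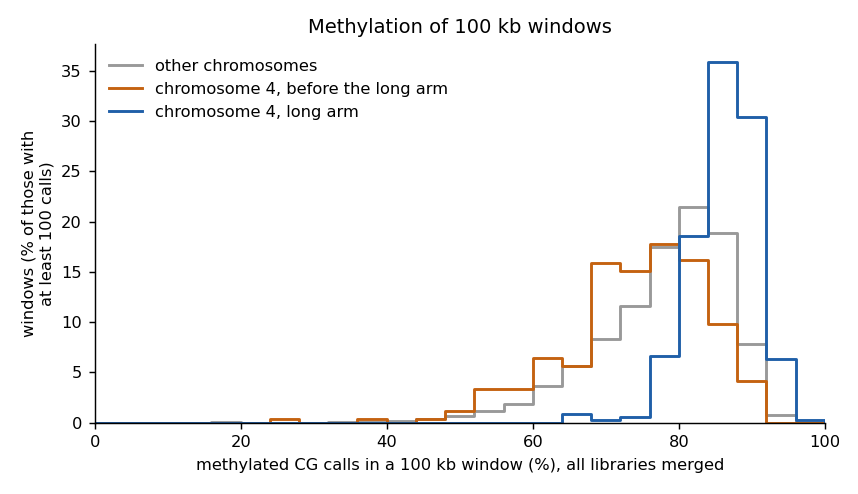
Share of 100 kb windows (y axis, per cent of the windows with at least 100 calls) by their percentage of methylated calls (x axis, bins of 4 points), with all libraries merged, for the long arm (blue), chromosome 4 before the arm (orange) and the other chromosomes (grey). Windows of the arm formed a narrow peak, of which 66.6% were over 85% methylated, against 11.7% before the arm and 21.6% on the other chromosomes.

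The 100 kb windows of the arm were alike in methylation. With all libraries merged, 329 of the 440 windows had at least 100 calls, and their methylation had a median of 86.8% and an SD of 4.52 points between windows. The SD was 10.0 points over 265 windows of positions 1 to 27000000 and 9.11 points over 12427 windows of the other chromosomes, although the median window of the arm had fewer calls (145, against 239 and 245). Among windows with at least 100 calls, those under 70% methylated made up 0.912% on the arm (3 windows), against 29.8% and 17.5%. The filter kept 74.8% of the windows of the arm, against 98.1% and 98.3%, so the sparse windows of the arm are not in this share. The 3 windows began at 27100001, 28300001 and 28500001, all within 2 Mb of the start of the arm. They are named here, after their values were seen, because they are all there were with at least 100 calls. Windows with fewer calls were also under 70% far from the start. The window at 59600001 had 39.1% of 23 control calls and 33.3% of 15 EGFP +ve calls methylated. Low windows are therefore not shown to be confined to the start of the arm.

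The windows described next were chosen in control libraries only, as those with most calls, the lowest and the highest methylation among the windows with at least 100 control calls, so that the EGFP +ve values were not used. The windows at 27100001 to 27200000 and 28500001 to 28600000 were the least methylated, at 65.5% and 65.7% in control cells. In EGFP +ve cells they had 64.9% (131 calls) and 68.3% (372 calls), both below every other window of this list. The window at 28600001 to 28700000 had 72.3% in control and 80.6% in EGFP +ve cells, with Wilson intervals of 65.3% to 78.4% and 74.0% to 85.8% that overlap. The window at 34500001 to 34600000 had 76.3% in control cells (95% Wilson interval 67.7% to 83.2%) and 93.5% in EGFP +ve cells (86.5% to 97.0%), but it had been chosen for its low control value. Each of the other windows lowest or highest in methylation was likewise chosen for its control value, which limits its comparison with EGFP +ve cells. The windows at 57900001, 28900001, 53800001 and 63200001 had 74.1%, 87.2%, 90.5% and 90.0% in control and 73.9% (23 calls), 88.3%, 86.5% and 83.0% in EGFP +ve cells. The most methylated windows, at 64400001, 34300001 and 40000001, had 95.1%, 95.1% and 94.1% in control cells and 91.8%, 97.1% and 96.2% in EGFP +ve cells.

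One window held far more calls than any other. The window at 61700001 to 61800000 had 3043 control calls and 2975 EGFP +ve calls, 38.0 and 46.5 times the median window of the arm. The next in control cells, at 53800001 and 28500001, had 5.54 and 4.95 times the median. Of its calls, 5857 of 6018 lay in 1 kb at chr4:61791001-61792000, at 11 CG positions and in 749 reads from 108 libraries. This stretch made up 7.71% of all calls of the arm. It supplied a median of 5 reads per library in both kinds of cell, with at most 27 in a control and 28 in an EGFP +ve library. No genome of this build was used here, so the sequence that lies there was not named.

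The calls of this 1 kb were almost fully methylated. In libraries with at least 10 calls there, methylation was 91.5% ± 7.12 (SD, n = 50) in control cells, with a range of 57.1% to 100% and a median of 92.6%. In EGFP +ve cells it was 95.6% ± 4.19 (SD, n = 50), with a range of 81.3% to 100% and a median of 96.0%. The groups overlapped, and the difference within ages and sexes was 4.14 points (permutation test, p = 0.00027). Within sequencing runs the difference was 3.32 points (permutation test, p = 0.0179). The share of reads that fell into the stretch was 1.153 times as high in EGFP +ve as in control cells, which did not pass the test (permutation test, p = 0.320). At the 8 positions with over 600 calls each, merged methylation was between 90.4% and 97.0%. The last position, 61791197, was unmethylated in 14 of 14 calls from 14 libraries. Whether these fish carry a CG at that position was not tested.

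Calls of the arm also returned to the same places more often than elsewhere. Outside the densest window, 0.294% of the arm's CG positions with a call were covered in at least 5 libraries, against 0.00962% on positions 1 to 27000000 and 0.0422% on the other chromosomes. Stretches of 1 kb with calls from at least 20 libraries numbered 13 of the 12139 with a call on the arm. There were none on positions 1 to 27000000 and 127 on all other chromosomes. These segments differ in size, with 440 windows of 100 kb on the arm, 270 before it and 12647 on the other chromosomes. Of these 13, 10 lay between 28573001 and 28743000. The most recurrent of them, at 28576001 to 28577000, had 309 calls from 91 libraries, of which 66.3% were methylated in control and 76.7% in EGFP +ve cells. Of these 10 stretches, 7 lay in the windows at 28500001 and 28600001, which were among the least methylated of the arm, and their merged methylation was 50.0% to 81.0%. The other 3 lay in the window at 28700001, which had 85.5% in control and 87.5% in EGFP +ve cells, and were at 78.1% to 84.6%. The least methylated window, at 27100001, held no such stretch.

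The excess of methylation on the arm was carried by reads with several CG calls. In reads with a single call, the arm was at 73.9% ± 9.39 (SD, n = 57) and the other chromosomes at 76.1% ± 2.99 in control cells. The difference of −2.18 ± 1.22 points (SE) did not pass the test (sign-flip permutation test, adjusted p = 0.106 over 16 tests). In EGFP +ve cells the values were 79.97% ± 8.62 and 79.9% ± 4.70 (SD, n = 59), a difference of 0.0276 ± 0.969 points (SE, permutation test, adjusted p = 0.977). With 4 to 5 calls in the read, the arm was 7.15 ± 0.604 points above the other chromosomes in control cells (55 of 57 libraries) and 4.05 ± 0.573 points in EGFP +ve cells (50 of 59 libraries). With 6 or more calls the excess reached 13.3 ± 0.577 points in control (57 of 57 libraries) and 12.8 ± 0.528 points in EGFP +ve cells (59 of 59 libraries), where the arm had 88.3% and 89.7% and the other chromosomes 74.99% and 76.9% (SE, permutation test, adjusted p = 2e-05 for these 4 differences). Methylation per read thus rose with the number of calls on the arm, whereas it was lower in the longest class than in the class of 4 to 5 calls on the other chromosomes. Without the densest window the excess in reads of 6 or more calls was 12.7 and 11.5 points.

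**Figure D3:**
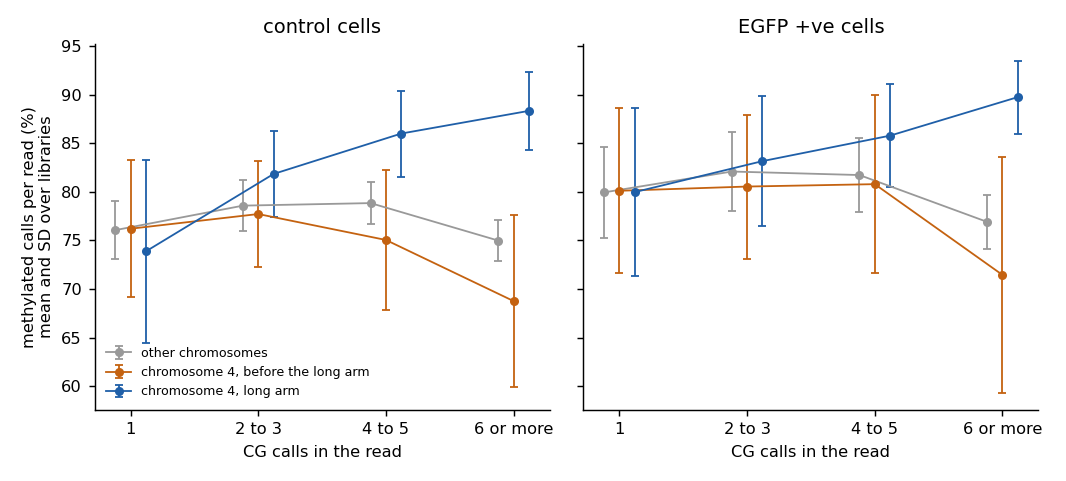
Percentage of methylated calls per read (mean and SD over libraries, 57 control and 59 EGFP +ve) for reads with 1, 2 to 3, 4 to 5 and 6 or more CG calls, on the long arm (blue), chromosome 4 before the arm (orange) and the other chromosomes (grey). The segments lay together for reads with 1 call and separated as calls per read rose, to 88.3% on the arm and 74.99% on the other chromosomes in control cells with 6 or more calls.

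Reads of the arm held more CG calls, and very few of those with at least 4 calls were free of methylation. The mean was 3.87 calls per read on the arm, 3.23 on positions 1 to 27000000 and 3.32 on the other chromosomes, and 25.2% of arm reads had 6 or more calls against 14.6% and 15.9%. Without the densest window the arm had 3.71 calls per read. Among reads with at least 4 calls, 1.59% of 8782 arm reads had no methylated call (95% Wilson interval 1.35% to 1.88%, merged libraries, counting error only). The share was 14.1% on positions 1 to 27000000 and 10.3% on the other chromosomes. Within libraries the share of such unmethylated reads was lower on the arm, with arm minus other chromosomes at −9.52 ± 0.255 points (SE) in control cells, below 0 in 57 of 57 libraries, and at −8.34 ± 0.294 points in EGFP +ve cells, below 0 in 59 of 59 libraries (sign-flip permutation test, p = 1e-05 for both). The median distance between neighbouring calls of a read was 15 bp both on the arm and on the other chromosomes, and 16 bp on positions 1 to 27000000.

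Germline and control cells were compared next, over libraries and within each age and sex, for relative call density, methylation and the gap in methylation to the other chromosomes. These 3 measures in 9 comparisons gave 27 tests, over which p-values were adjusted by the Benjamini-Hochberg method. Methylation of the arm was 1.16 ± 0.547 points (SE) higher in EGFP +ve than in control cells over all ages, with means of 87.1% and 85.9% (permutation test, p = 0.0461, adjusted p = 0.147). The mean was higher in EGFP +ve cells in 12 of 19 pairs of groups. Within sequencing runs, read from the read names, the difference was 2.00 points in 97 libraries (permutation test, adjusted p = 0.0243), so the pooled value missed the threshold and the within-run value passed it. Relative call density differed by a factor of 1.01 (permutation test, p = 0.874), and was higher in EGFP +ve cells in 9 of 19 pairs of groups.

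The EGFP +ve excess was smaller in points on the arm than elsewhere, a difference that narrowly missed the adjusted threshold. EGFP +ve cells were 2.70 ± 0.386 points (SE) above control cells on the other chromosomes and 4.02 ± 0.935 points on positions 1 to 27000000 of chromosome 4 (permutation tests, adjusted p = 6e-05 and 0.000324 over 18 tests). The arm's 1.16 points was the smallest difference of the 26 segments, whose median was 2.78. Single chromosomes came close to it, with 1.33 ± 0.728 points on chromosome 24 and 1.64 ± 0.678 points on chromosome 8 (SE). The SE on the arm was 0.547 points. The gap between the arm and the other chromosomes was 7.70 points in EGFP +ve and 9.24 points in control cells as means over groups, a difference of −1.54 ± 0.529 points (SE) that was negative in 15 of 19 pairs of groups (permutation test, p = 0.00435, adjusted p = 0.0587). Within runs it was −1.38 points (adjusted p = 0.122). It was −1.86 points without the densest window (adjusted p = 0.0152) and −0.850 points without the replicates with letter B (permutation test, adjusted p = 0.525), and −0.294 points in the 53 libraries with at least 500 calls on the arm that could be compared (permutation test, adjusted p = 0.988). On the scale of log2 odds, where a point near 100% weighs more, the gap differed by −0.0719 ± 0.0614 (SE, permutation test, p = 0.245).

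The EGFP +ve difference on the arm also varied with the number of calls in the read. In reads with 1 call, EGFP +ve cells had 79.9% and control cells 73.9% on the arm, a difference of 6.01 ± 1.55 points (SE, permutation test, adjusted p = 0.000272 over 8 tests). In reads with 2 to 3, 4 to 5 and 6 or more calls the differences were 1.22 ± 0.978, −0.332 ± 0.903 and 1.39 ± 0.664 points (adjusted p = 0.242, 0.707 and 0.0793). The difference between the first and the last class was 4.62 ± 1.70 points (SE, permutation test, p = 0.00607). Within sequencing runs it was 3.42 points (permutation test, p = 0.0725), and without the replicates with letter B it was 3.65 points (permutation test, p = 0.0883). On the other chromosomes the EGFP +ve excess was 3.91, 3.54, 2.93 and 1.95 points in the 4 classes, each with an adjusted p of 2e-05.

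Of reads with at least 4 calls, those with every call methylated made up 58.1% in EGFP +ve and 56.1% in control cells on the arm, a difference of 1.95 ± 1.56 points (SE, permutation test, adjusted p = 0.230 over 9 tests). On the other chromosomes the same share differed by 5.07 ± 0.687 points (adjusted p = 4.5e-05). Reads with no methylated call were rare on the arm in both kinds of cell, but made up 1.91% in EGFP +ve against 1.18% in control cells, a difference of 0.736 ± 0.315 points (SE, permutation test, adjusted p = 0.0348). On the other chromosomes this share was lower in EGFP +ve cells, at 10.2% against 10.7%. The difference between the arm and the other chromosomes in this respect was 1.22 ± 0.379 points (SE, permutation test, adjusted p = 0.00312). It rested on 140 unmethylated reads of the arm in all, 73 in EGFP +ve and 67 in control libraries.

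**Figure D4:**
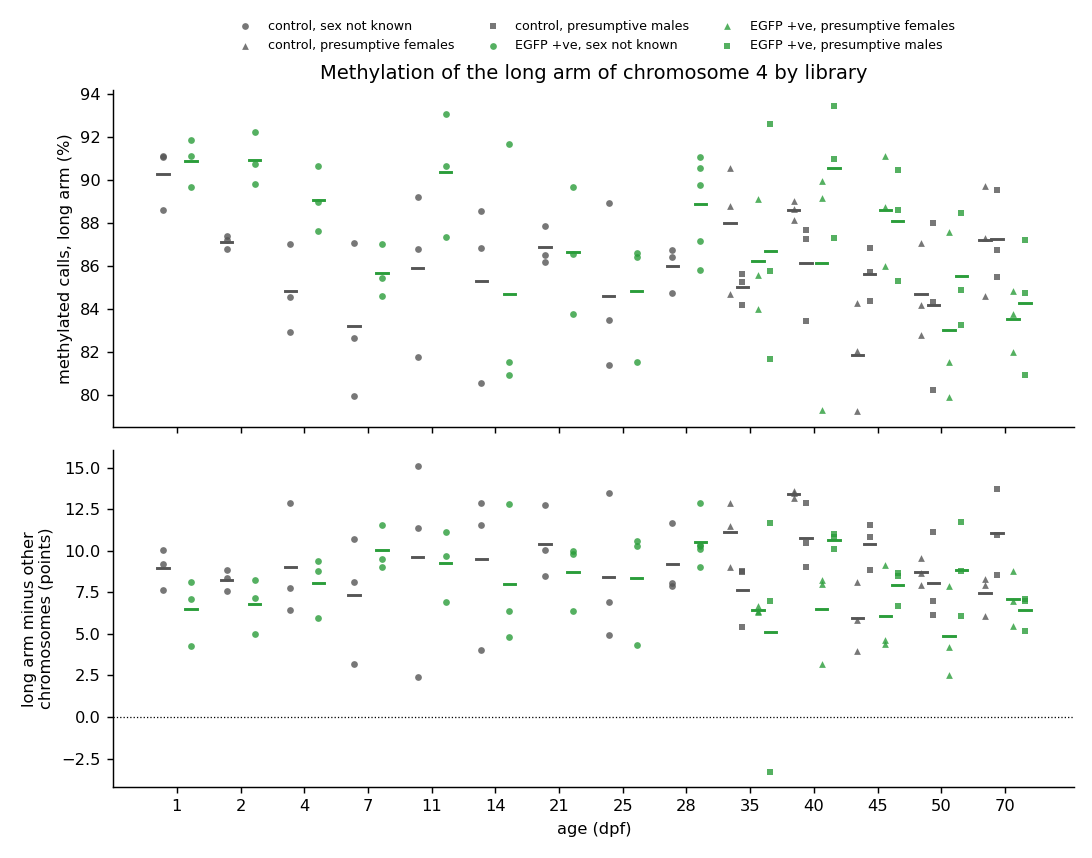
Methylated CG calls of the long arm (upper, per cent) and the arm minus the other chromosomes (lower, percentage points) by age in dpf, 1 point per library, control in grey and EGFP +ve in green, with triangles for presumptive females and squares for presumptive males from 35 dpf and a bar at each group mean. All points of the lower panel but 1 lie above 0, and EGFP +ve females of 35, 40 and 50 dpf lie below their control females.

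Both groups of 1 dpf and EGFP +ve cells of 2 dpf were among the more methylated. Older groups reached the same level, such as EGFP +ve males of 40 dpf with 90.6% ± 3.08 (SD, n = 3). Control cells of 2 dpf lay below several older groups, such as control females of 40 dpf with 88.6% ± 0.436 (SD, n = 3). At 1 dpf methylation of the arm was 90.2% ± 1.43 in control and 90.9% ± 1.11 in EGFP +ve cells, and at 2 dpf 87.1% ± 0.304 and 90.9% ± 1.23 (SD, n = 3 each). The 3 EGFP +ve libraries of 2 dpf, from 89.8% to 92.2%, lay above the 3 control libraries, from 86.8% to 87.4%. At 4 dpf control cells had 84.8% ± 2.07 and EGFP +ve cells 89.1% ± 1.504 (SD, n = 3), again without overlap. At 7 dpf the values were 83.2% ± 3.59 and 85.7% ± 1.23 (SD, n = 3), with overlap. Methylation of the arm lay without overlap in 3 of 19 pairs of groups, and a permutation test of 3 against 3 libraries cannot give p under 0.1. The other chromosomes did not overlap at 2 and 4 dpf either. At 2 dpf they had 83.6% to 84.8% in EGFP +ve and 77.9% to 79.6% in control cells. At 4 dpf they had 78.2% to 83.0% and 74.2% to 76.8%.

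Libraries of 1 and 2 dpf were compared with those of 4 to 28 dpf within each kind of cell. Labels were exchanged over libraries without regard to age, so libraries of the same age counted as independent. In EGFP +ve cells the arm had 90.9% ± 1.05 (SD, n = 6) at 1 and 2 dpf, with a range of 89.6% to 92.2%, and 87.3% ± 3.36 (SD, n = 23) at 4 to 28 dpf, with a range of 80.9% to 93.0%. The difference of 3.58 ± 0.820 points (SE) did not pass the adjusted threshold (permutation test, p = 0.0157, adjusted p = 0.0846). In control cells the arm had 88.7% ± 1.94 (SD, n = 6) and 85.2% ± 2.80 (SD, n = 21), a difference of 3.45 ± 1.00 points (SE, permutation test, p = 0.00958, adjusted p = 0.0686). Counting each read once, the differences were 5.48 and 4.53 points (permutation test, adjusted p = 0.0155 for both). Within sequencing runs they were 3.51 points in 23 and 4.83 points in 12 libraries (adjusted p = 0.256 and 0.122). On the other chromosomes the younger libraries were higher by 6.05 ± 0.636 points in EGFP +ve and 3.91 ± 0.665 points in control cells (SE, permutation tests, adjusted p = 6e-05 and 0.000135). The gap of the arm to the other chromosomes was 6.65 points at 1 and 2 dpf and 9.13 points at 4 to 28 dpf in EGFP +ve cells, a difference of −2.48 points that did not pass (permutation test, adjusted p = 0.0970). It was −1.31 points with each read counted once and −1.60 points without the replicates with letter B (permutation tests, adjusted p = 0.442 and 0.559), and −0.0777 on the log2 odds scale (permutation test, p = 0.576). Whether this change of the gap differed between the kinds of cell was tested, and the difference of −2.02 points had an adjusted p of 0.418 (permutation test, 6 tests).

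From 1 to 28 dpf as a whole, methylation of the arm was 88.0% in EGFP +ve and 86.0% in control cells, a difference of 1.98 ± 0.757 points (SE, permutation test, p = 0.0102, adjusted p = 0.0686). Within sequencing runs it was 2.82 points in 47 libraries (adjusted p = 0.0124). The other chromosomes differed by 2.49 ± 0.421 points over the same libraries, so that the gap differed by −0.506 ± 0.848 points only (SE, permutation test, p = 0.530). Relative call density was 0.961 times that of control cells (permutation test, p = 0.267).

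In presumptive females of 35 to 50 dpf the gap of the arm to the other chromosomes was narrower in the germline. As means over these ages, the other chromosomes were higher in EGFP +ve cells, and the arm was not detectably so. EGFP +ve libraries ranged from 79.3% to 91.1% with a median of 86.8%, and control libraries from 79.2% to 90.6% with a median of 85.9%. The difference was 0.211 ± 1.33 points (SE, n = 12 and 12, exact permutation test, p = 0.890). The other chromosomes differed by 4.06 ± 0.827 points and positions 1 to 27000000 by 5.85 ± 1.81 points (SE, exact permutation tests, adjusted p = 0.000713 and 0.00575). The gap of the arm to the other chromosomes was 5.97 points in EGFP +ve and 9.81 points in control females, and the difference of −3.85 ± 0.813 points (SE) was the one of the 27 tests that passed the adjusted threshold (exact permutation test, p = 0.001, adjusted p = 0.0270).

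By age, the gap of female EGFP +ve cells was 6.46 ± 0.214 points at 35 dpf, 6.49 ± 2.85 at 40 dpf, 6.05 ± 2.68 at 45 dpf and 4.88 ± 2.73 at 50 dpf (SD, n = 3 each). Female control cells had 11.1 ± 1.96, 13.4 ± 0.213, 5.97 ± 2.09 and 8.73 ± 0.829 points (SD, n = 3 each). The groups did not overlap at 35, 40 and 50 dpf. They overlapped at 45 dpf, with 4.37 to 9.15 points in EGFP +ve and 3.96 to 8.13 points in control cells. At that age control females also had the lowest arm methylation of any group, 81.8% ± 2.53 (SD, n = 3). Methylation of the arm itself, EGFP +ve minus control, was −1.78, −2.46 and −1.67 points at 35, 40 and 50 dpf. At 45 dpf it was 6.76 points, without overlap. Within sequencing runs the difference in the gap was −4.48 points in 19 libraries (exact permutation test, adjusted p = 0.0309). With each of the 24 libraries left out in turn it lay between −4.23 and −3.44 points, with adjusted p-values from 0.00405 to 0.0587. The call was lost, at −3.58 to −3.74 points and adjusted p-values of 0.0550 to 0.0587, without control replicate C of 45 dpf, EGFP +ve replicate B or C of 45 dpf, or control replicate C of 50 dpf. It was also lost without the replicates with letter B (−3.42 points, exact permutation test, adjusted p = 0.110) or letter C (−3.38 points, adjusted p = 0.259). The call was lost with the replicate letter as a block (exact permutation test, adjusted p = 0.0846) and on the log2 odds scale (−0.315 ± 0.109, SE, adjusted p = 0.107). In the 10 libraries with at least 500 calls on the arm that could be compared the difference was −4.17 points (exact permutation test, adjusted p = 0.125). So few libraries allow few arrangements, so this test could hardly pass the adjusted threshold and does not decide.

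In presumptive males of 35 to 50 dpf, EGFP +ve libraries ranged from 81.6% to 93.4% on the arm with a median of 87.9%, and control libraries from 80.2% to 88.0% with a median of 85.4%. The difference was 2.48 ± 1.26 points (SE, n = 12 and 12, exact permutation test, p = 0.0510, adjusted p = 0.147). The gap differed by −1.08 ± 1.33 points (exact permutation test, p = 0.451). At 45 dpf the male gap also did not overlap, with 6.71 to 8.65 points in EGFP +ve and 8.83 to 11.6 points in control cells. Over all ages and sexes the gap of EGFP +ve cells lay fully below that of control cells in 5 of 19 pairs of groups, and fully above it in 0. The difference between females and males in the germline's gap, −2.77 points, did not pass its test (permutation test, p = 0.106, adjusted p = 0.317), so the sexes are not shown to differ in it.

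At 70 dpf mean methylation of the arm was lower in EGFP +ve than in control cells. In the younger pooled libraries and in the younger males the mean difference was positive. In the younger females it was 0.211 ± 1.33 points (SE), and at 35, 40 and 50 dpf their EGFP +ve mean was also the lower one. Whether the difference at 70 dpf departs from that of younger ages was not tested. The difference in the gap was negative, as in the younger age ranges. EGFP +ve libraries had 80.9% to 87.2% on the arm (mean 83.9% ± 2.23, SD, n = 6) and control libraries 84.6% to 89.7% (mean 87.2% ± 2.09, SD, n = 6), with some overlap. The difference was −3.31 ± 1.38 points (SE, exact permutation test, p = 0.0350, adjusted p = 0.135). The other chromosomes differed by −0.800 ± 0.809 points (exact permutation test, adjusted p = 0.658). In males the gap of EGFP +ve cells, 5.16 to 7.11 points, lay below that of control cells, 8.55 to 13.7 points. In females the ranges overlapped, with 5.46 to 8.80 points in EGFP +ve and 6.11 to 8.29 points in control cells, and means of 7.08 and 7.44 points. The gap of both sexes together differed by −2.51 ± 1.00 points (SE, exact permutation test, p = 0.0600, adjusted p = 0.147).

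**Figure D5:**
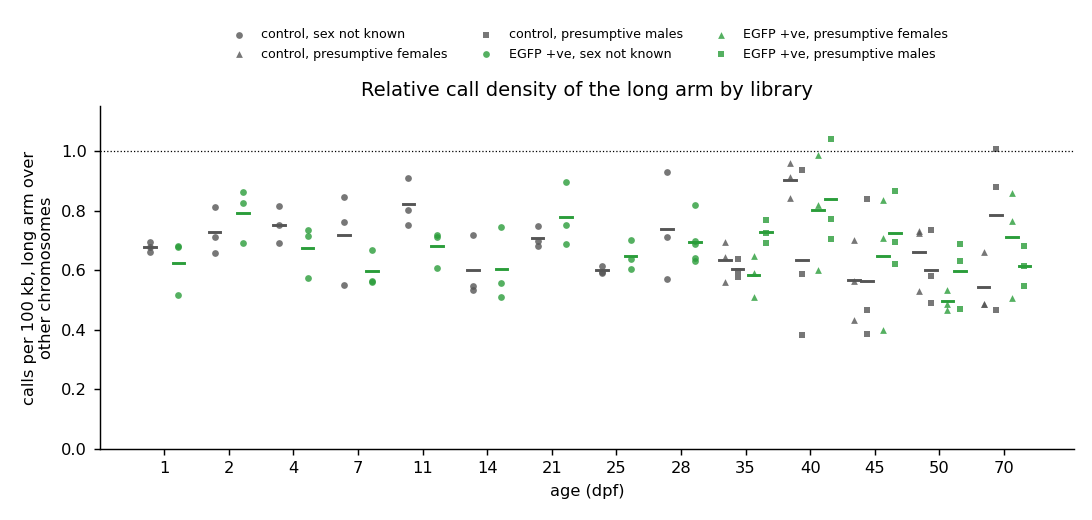
Relative call density of the long arm (y axis, calls per 100 kb window over those of the other chromosomes, from 0) by age in dpf, 1 point per library with a bar at each group mean, control in grey and EGFP +ve in green, triangles for presumptive females and squares for presumptive males. The 2 libraries over 1 are an EGFP +ve male library of 40 dpf (1.04) and a control male library of 70 dpf (1.01).

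Relative call density of the arm had a larger SD between libraries from 35 to 50 dpf, when each library came from 1 fish, than among the pools of younger fish, which was not tested. The SD over libraries was 0.106 (n = 27) in control and 0.0972 (n = 29) in EGFP +ve cells at 1 to 28 dpf. At 35 to 50 dpf it was 0.158 and 0.175 in control and EGFP +ve females and 0.169 and 0.139 in males (n = 12 each). Age, the number of fish per library and the sequencing run changed together, so their parts cannot be told apart. Most libraries of 35 to 50 dpf came from 1 run that held none of 1 to 28 dpf. The highest group mean was 0.904 ± 0.0596 in control females at 40 dpf, and the lowest was 0.495 ± 0.0335 in EGFP +ve females at 50 dpf (SD, n = 3).

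In males of 35 to 50 dpf, EGFP +ve libraries had a median relative density of 0.699 (range 0.471 to 1.04) and control libraries one of 0.585 (range 0.381 to 0.937). The ratio of geometric means was 1.22 (n = 12 and 12, exact permutation test, p = 0.0578, adjusted p = 0.147). In females EGFP +ve libraries had a median of 0.594 (0.401 to 0.986) and control libraries 0.699 (0.432 to 0.959), a ratio of 0.905 (exact permutation test, p = 0.243). All these groups overlapped. Female EGFP +ve cells had 0.859 times the density of male EGFP +ve cells and female control cells 1.16 times that of male control cells (exact permutation tests, adjusted p = 0.154 and 0.304). Against positions 1 to 27000000 of chromosome 4 in place of the other chromosomes, the log2 differences were 0.35 between EGFP +ve and control males and −0.32 between female and male EGFP +ve cells (exact permutation tests, adjusted p = 0.0457 and 0.0412).

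Female and male cells did not differ in methylation of the arm beyond the spread between libraries. Female minus male was −1.72 ± 1.57 points in EGFP +ve and 0.550 ± 0.947 points in control cells of 35 to 50 dpf (SE, n = 12 and 12, exact permutation tests, adjusted p = 0.429 and 0.747). The gap to the other chromosomes differed by −2.19 ± 1.38 and 0.581 ± 0.732 points (adjusted p = 0.260 and 0.712).

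No single 1 Mb window of the arm was called as different between EGFP +ve and control cells. The median SE of the methylation difference was 2.93 points over the 44 arm windows. In limma fits over 1345 windows of the genome, with age and sex in the model, 0 of 44 arm windows passed an adjusted p of 0.05 for methylation and 0 of 44 for density, and the background was 0% of all windows called in both fits. At an unadjusted p under 0.05 there were 2 of 44 arm windows for methylation (186 of 1345 in all) and 1 of 44 for density (69 of 1345). The median EGFP +ve minus control difference in methylation was 1.47 points on the arm, with 30 of 44 windows positive, against 2.28 points over all windows and 3.56 points over the 27 windows of positions 1 to 27000000. The window with the smallest p was 61 to 62 Mb, which holds the dense 1 kb, at 2.82 ± 1.22 points (SE, limma, adjusted p = 0.281).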

How the data were processed

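Per the submitters' notes, Trim Galore and Bismark 0.19.0 were used, and the authors deposited the calls of each library as 1 line per CG call with its read, position and methylation state, without counting, normalizing or merging replicates. The submitters' notes name GRCz10 and the methods of the study another version of the assembly. The highest position on chromosome 4 is 76624474. The 6 libraries titled 11 dpf whose day field gives 7 were used as 11 dpf.

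Calls of chromosomes 1 to 25 were used, 3412679 in all. Chromosome 4 after position 71000000 (142079 calls), which holds amplified ribosomal DNA, entered no measure or test. The values of its first Mb are given beside the end of the arm. The profile along the chromosome draws this stretch without the last Mb with calls. Methylation is the percentage of methylated calls of a segment in a library. Relative density is the ratio of calls per 100 kb window, tested as log2. Two-sided permutation tests over libraries compared the groups, with labels exchanged within age and sex, exact up to 200000 arrangements, otherwise 100000 permutations (20000 for differences between groups in an effect). Nothing in the labels says that libraries of pooled fish came from separate clutches, so p-values measure the spread between libraries. Windows of 1 Mb were fitted with limma 3.58.1 in R 4.3.3, for methylation weighted by calls with at least 5 calls per window and library, and for density on log2 shares of reads with 0.5 reads added and a mean of at least 1 read per library. Tested on simulated data, these fits recovered 193 and 200 of 200 changed windows (10 points and 2-fold) with 13 and 21 false calls. The simulated calls and reads were drawn independently, with no extra spread between libraries, so these rates need not hold for the real data. In the real methylation fit, differences from −12.1 to 13.9 points were not called, and the median SE was 3.21 points. Python 3.11.15, numpy 2.4.6, pandas 2.3.3, scipy 1.17.1 and matplotlib 3.10.9 were used.

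Windows are named by this rule: of the 100 kb windows of the arm with at least 100 control calls, the 5 with most calls, the 5 lowest and the 3 highest in methylation in control libraries. The arm, the tests and this rule were chosen with earlier results of these data known. Alternatives added after seeing the data were the densest window left out, log2 odds, the classes of reads, the dense 1 kb, and single libraries left out of the female gap. The other alternatives counted each read once, counted repeated reads once, averaged 1 Mb windows, used the inner stretch, another comparison segment, fewer windows, deeper libraries or single sequencing runs (8 runs), and left out replicate letters. No gene or sequence is given, because no genome of this build was used here.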

Additional observations from a re-analysis of the deposited data

Results flagged for a closer look

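The difference in relative call density of the arm between EGFP +ve and control cells at 35 to 50 dpf ran in opposite directions in the sexes. On the log2 scale it was −0.14 in females and 0.29 in males, and females minus males was −0.44 (permutation test of the difference itself, 20000 permutations, p = 0.0212). Adjusted over the 6 such differences tested it was 0.127, so it did not pass. Its cause was not tested. A search for libraries that stand apart was possible only in the group of 5 libraries, EGFP +ve cells at 28 dpf, and found none in 3 measures.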

How the results depend on the processing

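The excess of methylation and the low density of the arm within libraries kept their direction and passed the permutation test (p = 1e-05) when reads, windows or segment limits were changed or a letter was left out, the excess over the other chromosomes lying between 3.93 and 9.86 points. Split by calls per read, the excess ran from −2.18 points (control) and 0.0276 points (EGFP +ve) in reads with 1 call, neither of which passed, to 13.3 and 12.8 points in reads with 6 or more. The limma counts of 0 windows of the arm were 0 under every alternative. The letters A to C recur in every group (D and E only in EGFP +ve cells of 28 dpf), and the sources do not say that they pair libraries: deviations from the group means of same-letter libraries of both kinds of cell correlated at −0.0176 for methylation and 0.276 for density over 57 pairs. With the replicate block the female gap stayed at −3.85 points with an adjusted p of 0.0846, and no other call changed. Of all libraries, 59 had under 500 calls on the arm.

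Results of the 27 tests near 0 changed sign in 42 fits, all of them with an adjusted p of at least 0.256, and the cause was not tested. Differences are in points, or log2 for density. Density over all ages was −0.00438 with each read counted once, −0.000634 with repeated reads counted once, −0.00378 without the 1% densest windows, −0.00362 without the densest window, −0.0278 in libraries with at least 500 calls and −0.0437 within runs. Density at 1 to 28 dpf was 0.0215 against positions 1 to 27000000. At 70 dpf it was −0.0108 in deeper libraries and −0.129 within runs. Density of 1 and 2 against 4 to 28 dpf was −0.0453 (EGFP +ve) and −0.0170 (control) against positions 1 to 27000000, −0.235 and −0.0132 within runs, and in control cells −0.00767 without the 1% densest windows, −0.00258 without the densest window and −0.0101 in deeper libraries. The gap of that control comparison was 0.0871 by read, 0.176 against positions 1 to 27000000, 0.0990 without the 1% densest windows, 0.102 as log2 odds and 0.490 in deeper libraries. The gap at 1 to 28 dpf was 0.127 as a mean over windows, 0.0438 as log2 odds, 1.88 in deeper libraries and 0.0161 within runs. The gap of males was 0.0351 as log2 odds. Methylation of females, EGFP +ve minus control, was −0.125 without the densest window and −0.00497 in deeper libraries. Female minus male control cells was −0.0147 by read, −0.330 over windows, −0.154 in the inner stretch and −0.676 in deeper libraries for methylation, and −0.311, −0.123 and −0.239 over windows, in the inner stretch and in deeper libraries for the gap.

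Other results passed the threshold only under an alternative. By read these were methylation over all ages (1.98), at 1 to 28 dpf (2.32) and at 1 and 2 dpf in EGFP +ve (5.48) and control cells (4.53), and the gap over all ages (−1.29). As means over windows they were the gap over all ages (−1.56), methylation at 1 to 28 dpf (2.66) and at 1 and 2 dpf in control cells (3.42). Against positions 1 to 27000000 they were the gap over all ages (−2.86) and density in males (0.354) and between the sexes in EGFP +ve cells (−0.318). Without the 1% densest windows and without the densest window they were the gap over all ages (−1.83 and −1.86) and methylation of control cells at 1 and 2 dpf (4.07 and 3.90). Methylation at 1 to 28 dpf passed in deeper libraries (3.75) and within runs (2.82), and over all ages within runs (2.00). The female gap no longer passed as log2 odds (−0.315). In 10 deeper libraries (−4.17) it did not pass either, but so few libraries could hardly pass.

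With each letter left out in turn, the female gap ranged from −4.74 to −3.38 (adjusted p = 0.110 without B and 0.259 without C), the gap over all ages from −2.18 to −0.850, density over all ages from −0.0229 to 0.0385, methylation in females from −1.68 to 1.47, the gap at 1 to 28 dpf from −1.46 to 0.0703, density at 70 dpf from −0.134 to 0.185, methylation of female minus male control cells from −0.467 to 1.26, and in control cells at 1 and 2 dpf the gap from −1.49 to 0.332 and density from −0.0353 to 0.0534.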
